A study of Mus musculus with 3 samples.

Results

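Genes of the nuclear pore and of transport through it were followed in B16 cells, a mouse melanoma line, over 4 h of doxorubicin. Members were chosen by symbol alone: Nup genes, importins (Kpna, Kpnb, Ipo, Tnpo), exportins (Xpo), Ran-binding proteins (Ranb), and Ran, Rangap1, Tpr, Ndc1 and Pom121. No probe set analysed here carried Tpr as its 1 symbol. The rule found 55 genes of the 18193 genes with a named probe set, represented by 146 probe sets. Earlier results of these data were known when the set was put together, so its values are given as a description. The cells, grown in DMEM with antibiotics and 10% serum, were given 1 µg/ml doxorubicin, an anthracycline that poisons topoisomerase II. RNA was taken at 0, 2 and 4 h. Each time point was 1 Affymetrix Mouse430_2 array of 1 RNA sample, so the series held 3 arrays and no replicates. No untreated culture was carried along at 2 or 4 h, so drug and time in culture cannot be told apart. In bulk RNA such as this, fewer cells of a type and less RNA per cell cannot be told apart either.

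The nuclear pore is a ring-shaped channel through the nuclear envelope. It is built from scaffold rings, membrane anchors, a central channel lined with phenylalanine-glycine (FG) repeats, filaments on the cytoplasmic side and a basket on the nuclear side. Importins carry proteins in and exportins carry cargo out, and the small GTPase Ran gives the direction, since it is bound to GTP in the nucleus and to GDP in the cytoplasm. Many short-lived mRNAs, proteins and ribosomal subunits have to cross this channel.

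Promoters of 6 genes, chosen after their signals were seen, are printed first: 5 of the genes furthest below their 0 h signal, and Ran, which stayed nearer to it. Of the 55 members, 45 had a promoter in the RefSeq table (build GRCm38.p6). Each run is the 250 bases before the gene's first listed start, 5′ to 3′ on the gene's strand. Capitals mark the motifs searched on both strands, namely CACGTG (E-box), CCGGAAG (ETS), the NRF1 palindrome (named only), ATTGG (inverted CCAAT box), GGGCGG (GC box) and TGACGTCA (cAMP response element). In the 6 runs shown no motif overlapped another.
Nup62, chr7:44815838-44816087, plus strand: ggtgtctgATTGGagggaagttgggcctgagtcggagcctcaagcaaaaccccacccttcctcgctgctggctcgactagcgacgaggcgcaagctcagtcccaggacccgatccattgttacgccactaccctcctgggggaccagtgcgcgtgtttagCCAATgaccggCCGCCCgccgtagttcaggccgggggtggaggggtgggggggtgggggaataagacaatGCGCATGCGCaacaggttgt
Nup50, chr15:84923178-84923427, plus strand: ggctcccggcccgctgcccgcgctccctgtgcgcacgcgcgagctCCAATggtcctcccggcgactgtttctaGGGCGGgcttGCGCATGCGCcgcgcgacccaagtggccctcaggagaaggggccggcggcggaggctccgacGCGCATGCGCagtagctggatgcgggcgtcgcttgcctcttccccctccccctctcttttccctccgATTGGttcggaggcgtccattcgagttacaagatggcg
Nup153, chr13:46727850-46728099, minus strand: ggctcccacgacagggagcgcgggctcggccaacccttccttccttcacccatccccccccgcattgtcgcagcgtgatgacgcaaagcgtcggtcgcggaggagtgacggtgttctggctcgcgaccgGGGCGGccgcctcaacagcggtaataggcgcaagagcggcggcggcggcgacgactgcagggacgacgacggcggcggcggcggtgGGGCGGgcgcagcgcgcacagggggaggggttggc
Nup37, chr10:88146742-88146991, plus strand: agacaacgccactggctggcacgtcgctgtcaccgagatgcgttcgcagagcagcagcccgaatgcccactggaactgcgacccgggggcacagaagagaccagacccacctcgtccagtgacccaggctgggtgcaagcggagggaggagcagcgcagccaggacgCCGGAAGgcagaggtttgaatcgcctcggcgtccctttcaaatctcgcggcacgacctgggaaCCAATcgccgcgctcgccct
Nupl2, chr5:24164713-24164962, plus strand: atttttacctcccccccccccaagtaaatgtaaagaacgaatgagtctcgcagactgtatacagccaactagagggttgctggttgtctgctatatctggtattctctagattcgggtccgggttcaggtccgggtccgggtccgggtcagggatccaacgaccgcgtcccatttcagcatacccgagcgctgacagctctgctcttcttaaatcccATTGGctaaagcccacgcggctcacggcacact
Ran, chr5:129019906-129020155, plus strand: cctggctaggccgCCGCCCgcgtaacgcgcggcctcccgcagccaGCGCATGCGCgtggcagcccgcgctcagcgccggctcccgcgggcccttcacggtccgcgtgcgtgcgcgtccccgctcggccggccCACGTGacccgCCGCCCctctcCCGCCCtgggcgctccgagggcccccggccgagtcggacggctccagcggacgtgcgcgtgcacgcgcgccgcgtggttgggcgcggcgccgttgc
The NRF1 letters stood in the promoters of Nup62, Nup50, Nup107, Ran and Xpo5, that is in 5 of the 42 members that passed the signal filter and had a promoter (11.9%). They were held by 0.782% of all 32851 promoters and by 1.99% of the 7921 filtered genes that have a promoter. For members and filtered genes, a gene counted when any of its listed promoters held the letters. The share of all promoters counts each promoter singly, so the filtered genes are the like comparison for every motif here. Nup62 and Nup50 stood among the genes at least 2-fold lower at 4 h, and Nup107, Ran and Xpo5 did not. The inverted CCAAT box was found in 19 of 42 members (45.2%), against 33.8% of all promoters and 40.3% of filtered genes. The E-box was found in 7 of 42 (16.7%, against 6.02% and 10.2%). ETS letters were found in 7 of 42 (16.7%, against 6.91% and 16.7%), the GC box in 29 (69.0%, against 32.7% and 64.7%) and the cAMP response element in 3 (7.14%, against 1.55% and 3.09%). Among the 42, 7 belonged to the lower genes and 35 did not. Holders split 5 and 14 between these for the inverted CCAAT box, 2 and 3 for NRF1, and 0 and 7 for the E-box. The split was 1 and 6 for ETS, 4 and 25 for the GC box, and 0 and 3 for the cAMP response element. Whether any motif went with lower signals was not tested, and 7 genes are few. These matches describe letters in a window and were set against no binding data.

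Signals were read on arrays scaled to the same trimmed mean of 500, with signals under 100 set to 100, and a log2 ratio is the difference of 2 such log2 signals. A filter kept probe sets whose log2 signals averaged to a signal of 200 or more, and a gene took its brightest passing probe set. Probe sets differ in affinity, so a signal is compared between time points and not between genes. For genes with more than 1 passing probe set, the printed SD is that of the log2 ratios of those probe sets. It covers differences between probe sets only, not between cultures or arrays. With 1 array per time point no test was possible, and "lower" or "higher" below compares single arrays. The filter kept 51 of the 55 members and 9723 genes in all. The members that failed were Kpna7 (signals from 126 to 240), Nup210l (38.8 to 47.5), Ranbp17 (8.41 to 143) and Ranbp3l (72.4 to 199).

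Of 11 pigment cell markers 11, 9 and 10 reached a signal of 200 at 0, 2 and 4 h. Their summed signal was 174741, 179840 and 185439, but their median signal was 11710, 2640 and 1638, since members moved in different directions. Of the 9 that passed the filter, Sox10 (11710, 2640 and 892), Mitf (6576, 2031 and 739) and Mc1r (3976, 2200 and 1196) lay more than 2-fold under their 0 h signals at 4 h. The other 6, Tyrp1, Dct, Pmel, Mlana, Slc45a2 and Gpr143, stood at log2 ratios from 0.15 to 0.36, and Tyr (221, 170 and 142) and Oca2 failed the filter. Macrophage markers were looked at because a label names bone marrow-derived macrophages. They summed to 4116, 4966 and 5550 over 13 genes, with 5, 4 and 4 at or above 200. Itgam, Fcgr1, Mrc1, C1qa, C1qb, Aif1, Tyrobp and Ptprc did not pass the filter. The brightest that passed was Cd68 (1884, 3044 and 3699). Also passing were Csf1r (522, 424 and 376), Lyz2 (372, 414 and 398), Adgre1 (302, 197 and 301) and Cd14 (215, 268 and 151). Of 7 fibroblast markers 3 reached 200 on each array, of 5 endothelial markers 1, and of 5 lymphocyte markers 2, 2 and 1. Their part in the results was not tested. The median signal over all probe sets was 154, 136 and 126. The 4 h array was processed 94 min after the first, by the file headers, on fluidics module 1 (modules 3 and 4 for 0 and 2 h), so its run cannot be told apart from its time point.

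At 4 h, the genes furthest below their 0 h signal were those of a few pore proteins: Nup62 of the central channel, Nup153 and Nup50 of the nuclear basket, Nup37 and Nup43 of the outer ring, Pom121 of the pore membrane and Nupl2 of the cytoplasmic side. The carrier Kpna2 was the other member at least 2-fold lower, and no member was 2-fold higher. That made 8 of 51 members (15.7%) lower and 0 higher, against 14.4% of all genes lower and 2.32% higher, so in this setting the share of lower members was near the background. The gap differed with the floor and filter, which set the genes compared. The shares were 15.2% of 46 members against 8.35% of 5153 genes with values as deposited. They were 14.5% of 55 against 7.17% of 18193 with a floor of 200. That floor keeps every gene. A gene at the floor on all arrays cannot be counted as lower, which reduces the share of all genes. The 8 comprised 7 of 23 pore protein genes (30.4%) and 1 of 25 genes for transport receptors and the Ran cycle (4.0%). The 23 hold only pore genes that match the rule. Outside it, Ahctf1 (-1.18) and Rae1 (-0.66) were below 0 at 4 h on their brightest probe sets. Seh1l (0.21), Sec13 (0.51), Aaas (0.06), Tmem33 (0.35) and Gle1 (0.25) were above 0. The median log2 ratio at 4 h was -0.47 over the 23 pore protein genes and -0.05 over the 25 transport genes, beside -0.18 over the 51 members and -0.07 over all genes. With equal medians the class medians were -0.17 and 0.26, and with probe sets averaged the pore median was -0.24. The difference between the classes could not be tested with single arrays. Without the filter the same 8 genes were found among 55 members (14.5%), against 10.7% of all 18193 genes.

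At 2 h, Nup62 was the 1 member at least 2-fold lower (1.96% of 51) and none was 2-fold higher, against 5.69% and 1.41% of all genes. Most members lay a little below 0 at that time, 37 of 51 (72.5%) against 4960 of all 9723. From 2 h to 4 h, 6 members were at least 2-fold lower (11.8%) and 0 higher, against 5.41% and 0.843% of all genes, and all 6 were pore proteins. The comparisons share arrays (0 h in both ratios against it, 2 h and 4 h in the step between them), so their values are not independent of each other. The direction of the members' median depended on scaling. With arrays set to equal medians it was 0.13 at 4 h, while the median of all genes was then 0.24, and relative to all genes the members stood at -0.11 in both, since that scaling moves all genes nearly alike. Relative to all genes they stood at -0.27 with quantile normalization and at -0.28 with values as deposited. The plot of log2 ratios by role shows where the lower members lie.

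**Figure D1:**
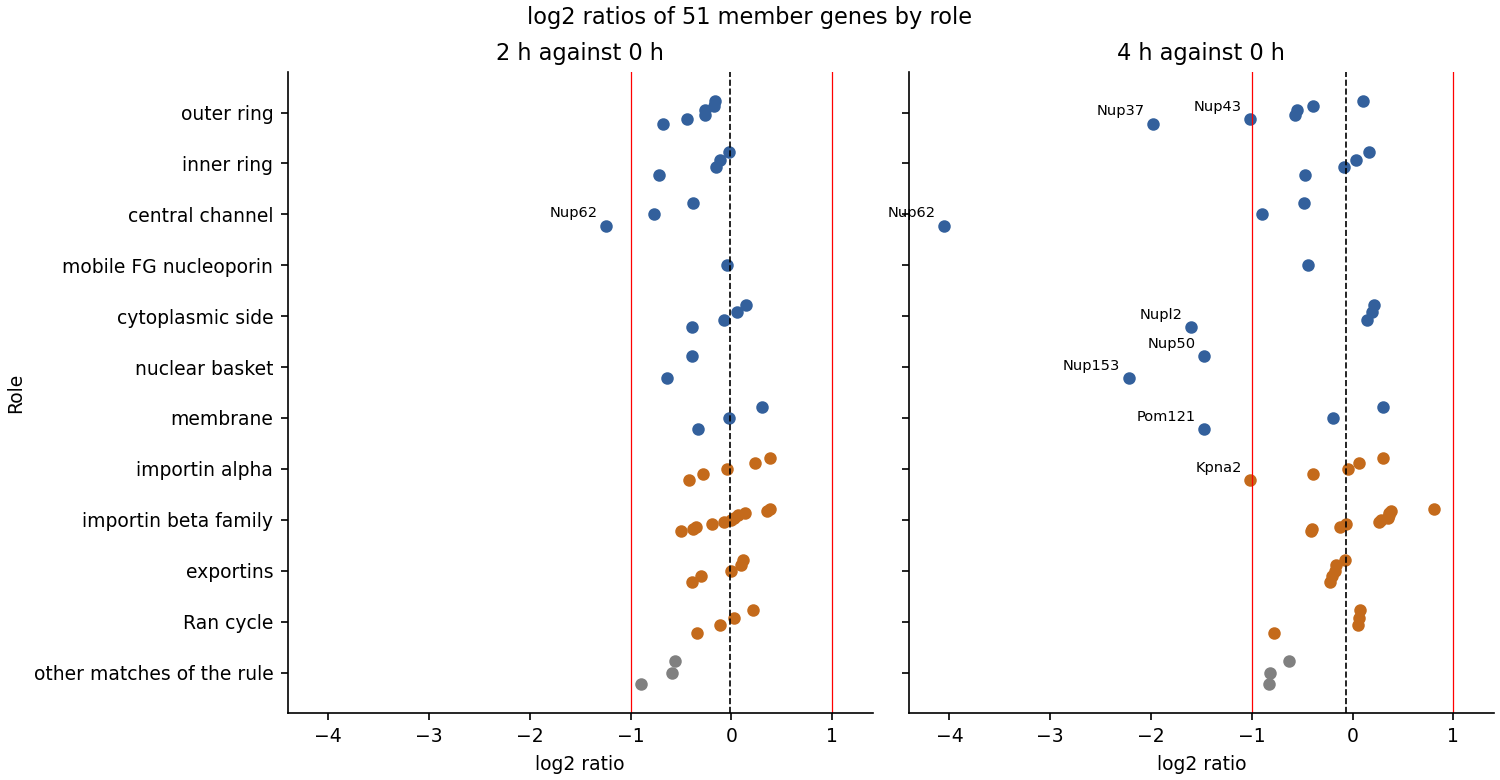
Each point is the log2 ratio of 1 member gene at 2 h (left) and 4 h (right) against 0 h, by role (vertical axis), with pore proteins in blue, transport genes in orange and other matches in grey. The dashed line is the median of all 9723 genes and the red lines mark 2-fold; at 4 h the 8 genes left of the lower red line are named, with Nup62 at -4.05.

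In the central channel, Nup62, an FG protein that forms a complex with Nup54 and Nupl1, had signals of 9196, 3892 and 554 at 0, 2 and 4 h. Its signal was lower at each later time point. It was 2.36-fold lower at 2 h (log2 ratio -1.24 ± 0.12, SD over 4 probe sets) and 16.6-fold lower at 4 h (-4.05 ± 0.68, SD over 4 probe sets), the 13th lowest of 9723 genes. The 4 passing probe sets agreed in direction. Their ratios ran from -1.39 to -1.13 at 2 h and from -4.05 to -2.41 at 4 h. The value was -3.02 at 4 h when suffixed probe sets were left out. Their names mark probes that may match several transcripts, of the same gene or of others. The remaining probe set was dim, with signals of 181, 22.6 and 23.0.

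The partners of Nup62 were closer to their 0 h signals. Nupl1, also known as Nup58, had signals of 1591, 1222 and 851, with ratios of -0.38 ± 0.20 and -0.90 ± 0.14 (SD over 4 probe sets). Its brightest probe set lay just short of 2-fold at 4 h, while the others were at -1.09, -1.16 and -1.22. Nup54 had signals of 1876, 1102 and 1344, with ratios of -0.77 ± 0.50 at 2 h and -0.48 ± 0.25 at 4 h (SD over 4 probe sets), and its brightest probe set was lowest at 2 h. The Nup54 probe sets did not share a sign: another, which is the one left when suffixed probe sets are dropped, stood at 0.32 at 2 h and -0.21 at 4 h (signals 632, 788 and 546), and a further one at -0.31 and 0.13.

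The nuclear basket had 2 measured members, and both were at least 2-fold lower at 4 h, against 14.4% of all genes. Nup153, an FG protein that anchors the basket to the pore, had signals of 1393, 896 and 299, 1.56-fold lower at 2 h and 4.67-fold lower at 4 h on 1 passing probe set. Its log2 ratios were -0.64 and -2.22. Another Nup153 probe set, under the filter, had signals of 222, 149 and 80.8. Nup50, a mobile FG protein that binds importin alpha, read 2594, 1977 and 934, at log2 ratios of -0.39 ± 0.53 and -1.47 ± 0.89 (3 probe sets, SD). Its 3 probe sets were lower at both times, from -1.45 to -0.39 at 2 h and from -3.05 to -1.47 at 4 h.

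**Figure D2:**
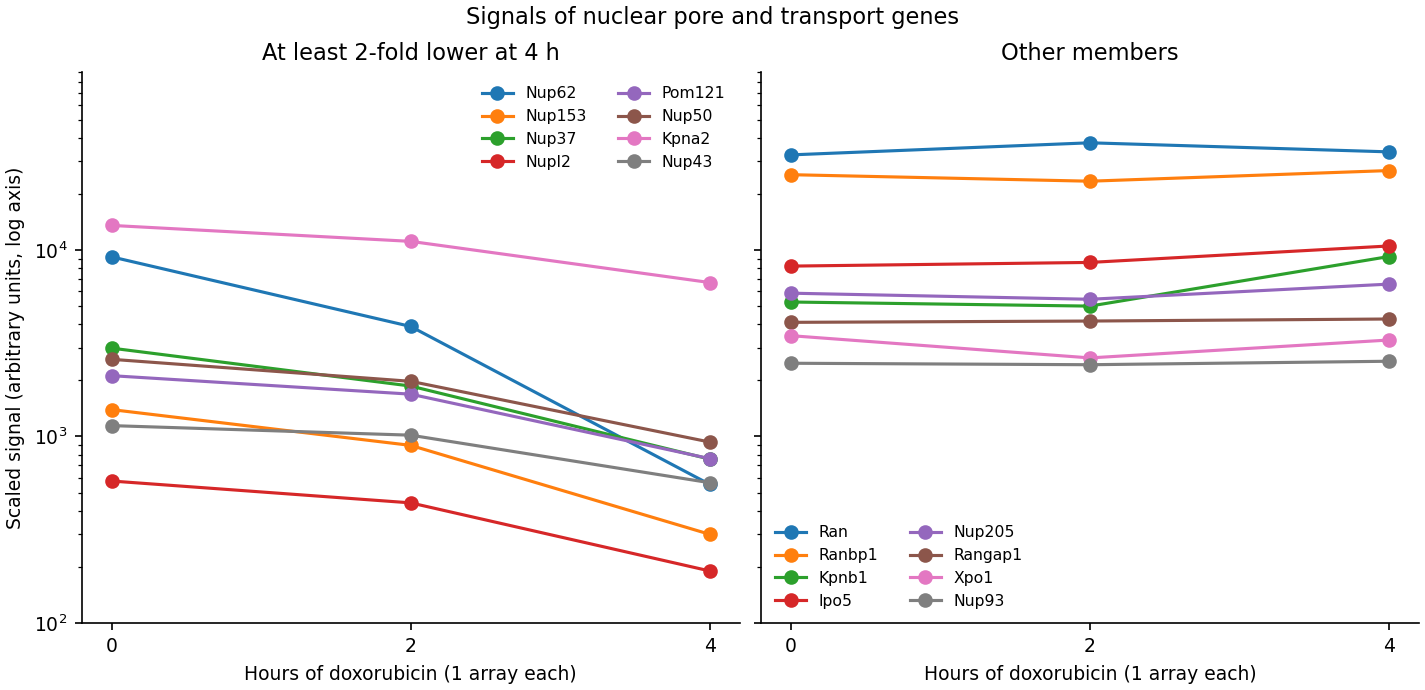
Scaled signals (log axis, arbitrary units) of 16 member genes at 0, 2 and 4 h of doxorubicin, 1 array each, with a line per gene and no error bars because there were no replicates. The 8 genes on the left, Nup62 with signals of 9196, 3892 and 554 among them, are lower at each later time point; on the right Ran (32423, 37646 and 33658) and 7 other members, chosen after their values were seen, stay nearer their 0 h signals.

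The outer ring, or Y complex, is the scaffold that coats both faces of the pore. All 6 measured members were below 0 at 2 h, with a median of -0.26 (the highest was 0.11 once suffixed probe sets were left out), and the median was -0.56 at 4 h. Nup37 had signals of 2978, 1864 and 756, 1.60-fold lower at 2 h and 3.94-fold lower at 4 h (log2 ratios -0.68 and -1.98, 1 probe set). Nup43 read 1143, 1016 and 565, at log2 ratios of -0.17 ± 0.20 and -1.02 ± 0.15 (2 probe sets, SD). These are small beta-propeller subunits of the ring. Seh1l and Sec13, small propeller subunits outside the rule, were not lower at 4 h. They stood at 0.21 ± 0.30 (SD over 5 probe sets) and 0.51. Core subunits differed less: Nup133 stood at -0.57 ± 0.15 at 4 h (SD over 3 probe sets), Nup85 at -0.55 ± 0.45 (SD over 2 probe sets), Nup107 at -0.40 and Nup160 at 0.11. Nup85 rested on probe sets of opposite sign at 4 h, at -0.55 and 0.08.

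The inner ring, which ties the outer rings to the membrane and the channel, had no member 2-fold different. Of all genes 5.69% were lower and 1.41% higher at 2 h, and 14.4% and 2.32% at 4 h. Nup205, a large scaffold protein, had signals of 5872, 5446 and 6567, and Nup93, which links scaffold and channel, 2471, 2426 and 2533. Their ratios at 4 h were 0.16 ± 0.38 (SD over 2 probe sets) and 0.04. Nup188 stood at -0.08 ± 0.13 (SD over 2 probe sets). Nup155 was at -0.71 ± 0.50 at 2 h and -0.47 ± 0.35 at 4 h (SD over 2 probe sets), but its other probe set was at -0.01 and 0.02. Each of the 4 genes was higher at 4 h than at 2 h, by 0.06 to 0.27 on the log2 scale; the lowest of the 4 was at -0.04 with spike-in scaling and at -0.05 with a gene's probe sets averaged.

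Of the membrane proteins, Pom121, which anchors the pore in the nuclear envelope, had signals of 2119, 1687 and 761. It was 1.26-fold lower at 2 h and 2.79-fold lower at 4 h (-0.33 ± 0.64 and -1.48 ± 0.85, SD over 2 probe sets). Its second probe set was lower still, with signals of 643, 273 and 70.6. The other anchors differed less. Ndc1 had ratios of 0.30 ± 0.20 and 0.30 ± 0.19 (SD over 3 probe sets), and Nup210 of -0.02 and -0.19.

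On the cytoplasmic side, Nupl2, also known as Nup42, an FG protein with a role in mRNA export, had signals of 577, 440 and 190. It was 1.31-fold lower at 2 h and 3.04-fold lower at 4 h (log2 ratio -1.60 at 4 h) on 1 passing probe set, and it was too dim to pass a filter of 400. On their brightest probe sets its neighbours on that face lay slightly above 0 at 4 h. Nup88 stood at 0.22, Nup214 at 0.19 ± 0.41 and Ranbp2, the SUMO ligase of the filaments, at 0.14 ± 0.54 (SD over 2 probe sets each). The second Ranbp2 probe set was at -0.73 at 2 h and -0.62 at 4 h and the second Nup214 probe set at -0.35 and -0.38. With probe sets averaged, the median of the 4 cytoplasmic genes at 4 h turned from 0.17 to -0.17.

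Nup98 gives a mobile FG protein and, from the same precursor, the outer ring protein Nup96. Its probe sets did not agree. The brighter had signals of 1299, 1256 and 953, with ratios of -0.05 and -0.45, and the other had 945, 290 and 269, with ratios of -1.71 and -1.81. The SD over the pair was 1.17 at 2 h and 0.97 at 4 h, so Nup98 counted as 2-fold lower only when probe sets were averaged (-1.13 at 4 h). Over the 35 members with several passing probe sets, the sign was shared by all of them in 22 at 2 h and in 23 at 4 h. The pooled SD within these genes was 0.31 and 0.38, against 0.40 and 0.48 over 3905 such genes of the array.

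**Figure D3:**
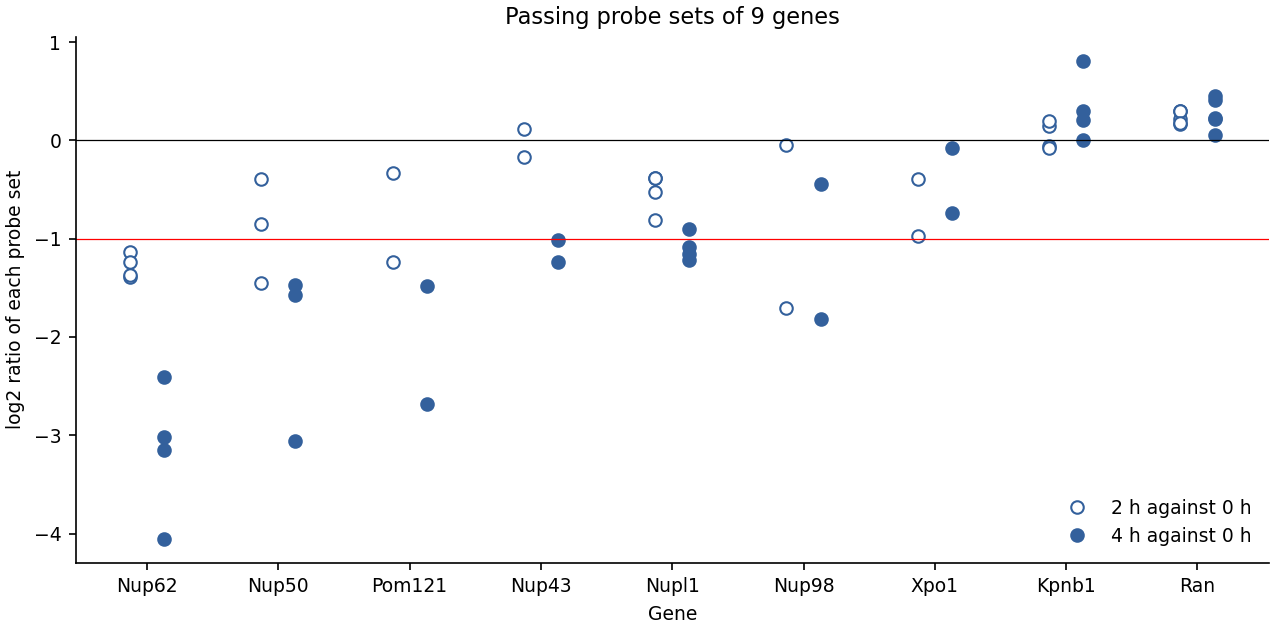
Each point is the log2 ratio of 1 passing probe set, at 2 h (open) and 4 h (filled) against 0 h, for 9 member genes along the horizontal axis; the red line marks 2-fold lower. The 4 probe sets of Nup62 are all under the red line at both times, those of Nup98 lie apart (-0.45 and -1.81 at 4 h), and those of Ran all lie above 0.

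Importin alpha proteins are adaptors that bind the classical import signal. Kpna2, an adaptor abundant in dividing cells, had signals of 13564, 11139 and 6699, 1.22-fold lower at 2 h and 2.02-fold lower at 4 h (log2 ratios -0.28 and -1.02, 1 probe set). It lay just inside the 2-fold limit with Nup43, and Nupl1 (-0.90) and Ranbp10 (-0.83) lay just outside. With equal medians Kpna2 stood at -0.71 and was no longer 2-fold lower. The other adaptors were within 0.39 of their 0 h log2 signal at 4 h: Kpna1 at 0.06 ± 0.31 (SD over 5 probe sets), Kpna3 at -0.39 ± 0.16 (SD over 3), Kpna4 at 0.30 ± 0.08 and Kpna6 at -0.05 ± 0.27 (SD over 2 each). Kpna2 was thus the 1 adaptor of 5 past the limit, against 14.4% of all genes lower and 2.32% higher at 4 h.

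Importin beta proteins carry cargo through the pore themselves. None of the 11 counted in this group was 2-fold different at either time. Of all genes 5.69% were lower and 1.41% higher at 2 h, and 14.4% and 2.32% at 4 h. The median of the 11 was -0.01 at 2 h and 0.28 at 4 h (-0.04 at 4 h with spike-in scaling and 0.09 with quantile normalization). Relative to all genes the 4 h median stood at 0.34, and at 0.03 with quantile normalization. Kpnb1, the partner of importin alpha, had signals of 5265, 5006 and 9234, with ratios of -0.07 ± 0.14 and 0.81 ± 0.34 (SD over 4 probe sets). That was the highest ratio of any member at 4 h, but the brightest probe set stood alone: the other 3 were at 0.00, 0.21 and 0.29. The Kpnb1 value was 0.29 when suffixed probe sets were left out and 1.11 with equal medians. Ipo5, an importin of ribosomal proteins and histones, had signals of 8205, 8587 and 10521, and its 2 probe sets both stood at 0.36 at 4 h. Ipo9 stood at 0.28 ± 0.04, Tnpo1, the transportin of RNA-binding proteins, at 0.36 ± 0.17 and Tnpo3, which imports splicing factors, at 0.35 ± 0.23 (SD over 3 probe sets each). Ipo4 stood at 0.26 ± 0.05 and Ipo8 at 0.38 ± 0.63 (SD over 2 probe sets each). At the lower end were Ipo13 at -0.41, Ipo7 at -0.41, Tnpo2 at -0.12 ± 0.25 (SD over 3 probe sets) and Ipo11 at -0.06. Ranbp6, a relative of Ipo5 counted outside the 11, stood lower, at -0.90 at 2 h and -0.82 at 4 h.

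Exportins showed no 2-fold difference. Of all genes 5.69% were lower and 1.41% higher at 2 h, and 14.4% and 2.32% at 4 h. Xpo1, also known as CRM1, the main protein exporter, had signals of 3473, 2640 and 3292, so that it was lower at 2 h and near its 0 h signal at 4 h. Its ratios were -0.40 ± 0.41 and -0.08 ± 0.47 (SD over 2 probe sets), and the second probe set stood at -0.98 and -0.74. Xpo5, which exports precursors of microRNAs, was at -0.22 ± 0.28 and Xpo7 at -0.20 ± 0.09 at 4 h (SD over 2 probe sets each). Xpo6 was at -0.18 and Xpo4 at -0.16. All 5 were below 0 at 4 h, by no more than 0.22; with equal medians all 5 were above 0, from 0.08 to 0.23.

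Of the 4 measured genes of the Ran cycle, 3 stayed within 0.22 of their 0 h log2 signal at both times on their brightest probe sets. Ran had signals of 32423, 37646 and 33658, with ratios of 0.22 ± 0.06 and 0.05 ± 0.16 (SD over 5 probe sets). A further Ran probe set, under the filter, had signals of 356, 76.4 and 192 (ratios -1.83 and -0.89). Ranbp1, a cofactor of GTP hydrolysis by Ran, had 25387, 23421 and 26715, and Rangap1, the GTPase-activating protein held at the pore, 4096, 4162 and 4268. Rangap1 stood at 0.06 ± 0.15 (SD over 3 probe sets) and Ranbp1 at 0.07 at 4 h. Ranbp3, a cofactor of export by Xpo1, stood lower on its brightest probe set, at -0.34 ± 0.04 and -0.78 ± 0.53 (SD over 2 probe sets). Its second probe set was at -0.29 at 2 h but at -0.03 at 4 h. Further matches of the rule were counted in none of the pore or transport groups. Ranbp6 was among them, although it belongs to the importin beta family. Ranbp9 and Ranbp10, scaffolds of a ubiquitin ligase complex, were at -0.63 ± 0.02 and -0.83 ± 0.09 at 4 h (SD over 2 probe sets each), and Ranbp6 was at -0.82 with signals of 308, 165 and 174.

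The 8 genes at least 2-fold lower at 4 h shared a course on their brightest probe sets. Each was below its 0 h signal at 2 h, and in each the log2 difference from 2 h to 4 h was larger than that from 0 h to 2 h (8 of 8, with medians of -0.39 for the first 2 h and -1.18 for the next). Of their other passing probe sets, 1 of Nup43 was above 0 at 2 h (0.11, then -1.35 from 2 to 4 h) and 1 of Nup50 had the larger first step (-0.86, then -0.71). The 8 were picked by their 4 h ratio, which is the sum of both steps. Among all 1396 genes at least 2-fold lower at 4 h, 1340 were also below their 0 h signal at 2 h. The later step was the larger in 753 of the 1396 (53.9%), with medians of -0.73 and -0.81, and 427 were already 2-fold lower at 2 h. The later step reached -2.81 ± 0.66 for Nup62, -1.58 for Nup153, -1.30 for Nup37, -1.21 for Nupl2, -1.15 ± 0.21 for Pom121 and -1.08 ± 0.45 for Nup50 (SD over 4, 2 and 3 probe sets where given). On their brightest probe sets Nup54, Nup155, Ipo8 and Xpo1 ran the other way, lower at 2 h and nearer to or above their 0 h signal at 4 h. The second Ipo8 probe set was lower at each later time (530, 433 and 370; -0.29 and -0.52), the unsuffixed Nup54 probe set was higher at 2 h than at 0 or 4 h, and the second Nup155 probe set hardly differed.

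**Figure D4:**
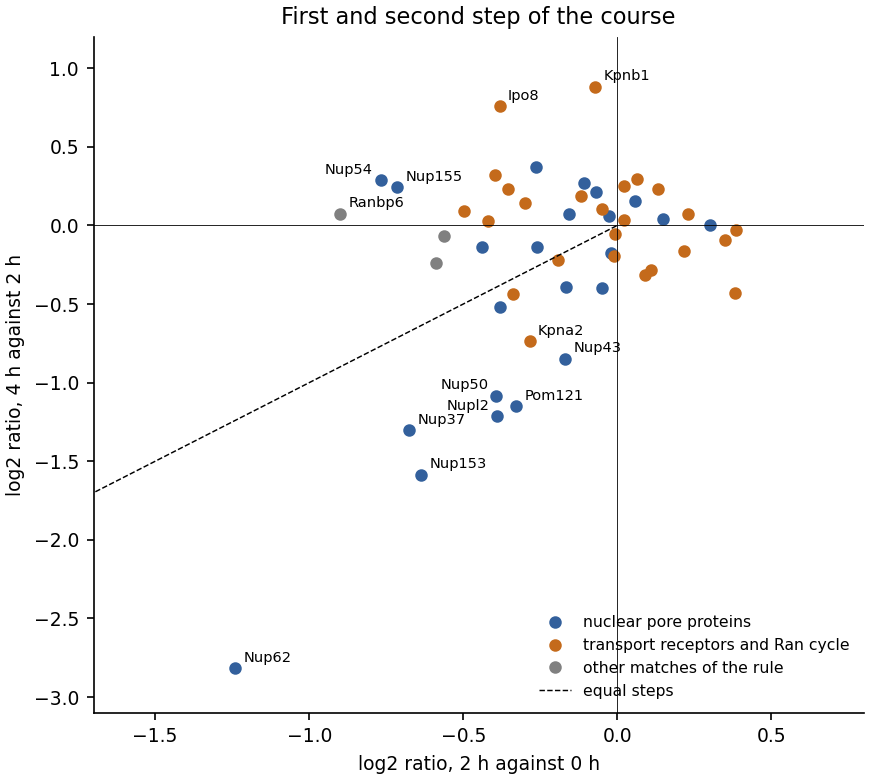
Each point is 1 of 51 member genes, with its log2 ratio from 0 h to 2 h on the horizontal axis and from 2 h to 4 h on the vertical axis; the dashed line marks equal steps. Below that line on the left lie the 8 genes 2-fold lower at 4 h, from Kpna2 to Nup62 (-1.24, then -2.81), while Kpnb1 and Ipo8 stand highest on the vertical axis.

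Properties outside the rule were set beside these values. The 8 lower genes had a median genomic span of 19294 bases (10897 to 47948) and the other 43 members of 50597 bases (4167 to 142520). The median over 9710 genes was 23250.5 bases, so the lower genes lay nearer to it than the other members did. Across the 23 pore protein genes, span and log2 ratio at 4 h had a Spearman correlation of 0.58, against 0.07 across the 25 transport genes and -0.09 across 9710 genes. These correlations run over genes read on the same arrays and are given as a description. The 8 lower genes had 20 protein-coding genes overlapping them or next to them, of which 14 passed the filter. At 4 h 1 of the 14, Lats1 beside Nup43, was at least 2-fold lower (-1.04), against 14.4% of all genes. Atf5, whose annotated span overlaps that of Nup62, had signals of 2897, 3475 and 3460.

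Genes of the same pathway outside the rule were read from a list of 38 symbols, of which 34 were on the array and 33 passed. At 4 h 3 were at least 2-fold lower and 1 higher, against 14.4% and 2.32% of all genes. At 2 h 0 were lower and 1 higher, against 5.69% and 1.41%. The medians were 0.15 at 4 h and 0.07 at 2 h, beside -0.07 and -0.01 for all genes. The lower genes were Nxt1, a cofactor of mRNA export (2449, 1525 and 992; log2 ratio -1.30 at 4 h), Phax, an adaptor for export of small nuclear RNA (1309, 898 and 564; -1.22), and Ahctf1, or ELYS, which seeds pores on chromatin (549, 402 and 243; -1.18 ± 1.06, SD over 2 probe sets). Eny2, a subunit of an mRNA export complex, was 2.18-fold higher at 4 h (1.13 ± 0.82, SD over 4 probe sets). Snupn, an import adaptor of spliceosomal particles, was 2.31-fold higher at 2 h (1.21 ± 1.31, SD over 2 probe sets). Further outer ring genes, Seh1l and Sec13, stood at 0.21 ± 0.30 (SD over 5 probe sets) and 0.51 at 4 h.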

How the data were processed

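Gene expression was measured on 3 arrays, 1 each at 0, 2 and 4 h. The authors deposited linear signal intensities, already scaled: the 2% trimmed mean over 45101 probe sets was 150.0 on each array. GCOS 1.4 is named in the submitters' processing notes; no source used here gives the signal algorithm. Other fields read from the scanner records (array design, module, order), per the file headers, are not measurements. Arrays were grouped by title; the description and source fields name other cells and an unexplained treatment.

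Signals were rescaled to a trimmed mean of 500, floored at 100, logged (log2) and filtered at 200. Of the probe sets, 34958 carry 1 symbol, 932 several and 9211 are not listed; 34754 symbols were checked by Entrez ID against RefSeq (GRCm38.p6), and 64 controls were left out. Genes took the brightest passing probe set, and 2-fold (log2 ratio of 1) was the limit for counts. Members, lists and limits were chosen with earlier results of these data known. Any member may be named, and other genes from lists mostly when 2-fold different. No test was possible. The counting step was tested on simulated data. Tools were numpy 2.4.6, scipy 1.17.1, pandas 2.3.3 and matplotlib 3.10.9 under Python 3.11.15. The number of arrays limits the precision.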

Additional observations from a re-analysis of the deposited data

How the results depend on the processing

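Alternatives changed the scaling, floor, filter or choice of probe set, 1 at a time. Nup62 was at least 2-fold lower at 2 h in 11 of 11 alternatives, and at 4 h Nup62, Nup153, Nup37, Nup50 and Pom121 were so in 11 of 11. Nupl2 was in all 9 that kept it, Kpna2 in 10 of 11 and Nup43 in 8 of 11. Members at least 2-fold lower at 4 h numbered 6 to 12. The low end came with equal medians and the high end with spike-in scaling, in which 22.7% of all genes were lower. With equal medians the members' median was -0.012 at 2 h, 0.129 at 4 h and 0.120 from 2 to 4 h, and Kpnb1 made 1 member at least 2-fold higher at 4 h and 1 from 2 to 4 h. With spike-in scaling the medians were -0.382, -0.497 and -0.135, and 2 members (Nup62 and Ranbp6) were lower at 2 h. The median of all genes moved with it, by 0.15 and 0.31 (equal medians) and by -0.22 and -0.32 (spike-ins) at 2 and 4 h. Floors of 200 and no filter keep every gene. No paired analysis was possible because each time point has 1 array. Probe sets near the floor, such as Ranbp6, have little room to fall.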

Other observations

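Genes of the nuclear lamina and envelope, the layer that holds the pores, were read from a list of 16 symbols, all above the filter. None was at least 2-fold lower at 2 h or 4 h, against 5.69% and 14.4% of all genes, and Syne2, a nesprin that links the nucleus to the cytoskeleton, was 2.04-fold higher at 4 h on 1 probe set, with signals of 323, 328 and 658. The median log2 ratio was -0.04 at 2 h and -0.12 at 4 h, beside -0.01 and -0.07 for all genes. Lmna, which encodes A-type lamins, had signals of 5983, 8406 and 8145 (0.49 ± 0.09 and 0.45 ± 0.04, SD over 3 probe sets), and Lmnb1, a B-type lamin, 4567, 4416 and 4599 (-0.05 ± 0.17 and 0.01 ± 0.09, SD over 2 probe sets). Lemd2, an inner membrane protein, was the lowest at 4 h, at -0.81.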
